A study of Mus musculus with 8 samples.

Results

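Retinoid synthesis, transport and breakdown genes were described in the spleen of mice given all-trans retinoic acid (tRA), the active metabolite of vitamin A. The genes were 9 chosen by symbol (Stra6, Rdh10, Rdh12, Dhrs3, Aldh1a1, Aldh1a2, Crabp2, Cyp26a1 and Cyp26b1), found by Ensembl identifier among the 51826 gene identifiers of the count table. RNA-seq was performed on total splenocytes, the mixed cells of the whole spleen after red blood cell lysis, from 8 female Balb/c mice. In 4 mice tRA was given by mouth each day at 1 mg/kg body weight, in canola oil, from weaning until 3 months of age, and 4 control mice received the oil alone, with no pristane in either group. The sample labels list the tRA dose for the control mice as well, while their titles give them as controls, and the titles were followed.

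Counts on genes totaled 37539631, 31833853, 35924683 and 30919272 in control mice 1 to 4, and 33755595, 31810417, 35165876 and 32042754 in tRA mice 1 to 4. Levels below are CPM, counts scaled to a common library size by TMM, and the 9 genes are compared with each other in level only as RPKM, which also divides by gene length. Where a gene of another list is called most counted, it had the highest mean CPM over the 8 mice, which is its share of counts and not an order per length. All fold changes are tRA over control on the log2 scale. B and T cell markers were high in each library, with summed levels from 4993 to 6070 CPM and from 1295 to 1565 CPM, with Cd79a and Lck most counted. Markers of tissue near the spleen were close to 0: 6 pancreatic acinar genes summed to at most 0.560 CPM (Prss2 most counted, Cpa1 at 0 counts) and 7 mesothelial genes to at most 1.04 CPM (Gpm6a most counted, Krt19 at 0 counts). Reticular fibroblast markers, 11 genes with Pdgfrb most counted and Lum at 0 counts, summed to between 4.14 and 9.22 CPM.

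Libraries stood apart within groups, and for neutrophil precursor markers also between groups. Erythroid markers (5 genes, Alas2 most counted) summed to 40.2, 77.4, 86.8 and 26.0 CPM in control mice 1 to 4 and to 77.7, 35.1, 168 and 33.9 CPM in tRA mice 1 to 4. The highest sum was in tRA mouse 3. Immediate early and heat shock genes (11 genes, Fos most counted), which respond quickly to stress and activation, summed to 17600, 16460, 17290 and 14550 CPM in the controls and to 15880, 12920, 5814 and 8206 CPM with tRA. The tRA mice 3 and 4 were lowest, and 11 of the 11 genes had a negative fold change (median -0.52). The unadjusted p was under 0.05 for 5 of them, 0 passed the FDR threshold of 0.1 in edgeR, 2 (Egr1 and Jun) in DESeq2 and 0 in limma-voom, and 3.55% of all genes tested were lower at that unadjusted p. Neutrophil precursor markers (10 genes, Ngp most counted) summed to 555, 702, 741 and 635 CPM in the controls and to 253, 316, 346 and 494 CPM with tRA, with 10 of 10 fold changes negative (median -0.86), of which 9 had an unadjusted p under 0.05, against the same 3.55%. All tRA mice were below all control mice for 6 of the 10, against 1.63% of the genes tested. For the immediate early and heat shock genes this held for 4 of the 11. At the FDR threshold of 0.1, edgeR called 0 of the 10 neutrophil precursor markers, DESeq2 4 (Camp, Lcn2, Ltf and Ngp) and limma-voom 1 (Camp). Over all 16484 genes tested, for comparison with both lists, edgeR called 0, DESeq2 44 (0.267%) and limma-voom 1. In bulk samples, fewer cells of a type and less RNA per cell cannot be told apart.

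Retinol reaches cells bound to a carrier protein, and Stra6 is a membrane receptor that takes it up. Inside the cell retinol is oxidized reversibly to retinaldehyde and then irreversibly to retinoic acid, which binds nuclear receptors, while CYP26 enzymes break it down. In many tissues retinoic acid raises transcription of genes that limit its own level, Cyp26a1 and Dhrs3 among them, and in the immune system it is best known for imprinting gut homing on lymphocytes.

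Of the 9 genes, 7 passed the filter on low counts, and Cyp26a1 and Cyp26b1 did not. Of these 7, 0 passed an FDR threshold of 0.1 (edgeR's quasi-likelihood test, adjusted by Benjamini-Hochberg), against 0.0% of the 16484 genes tested, whose lowest FDR was 0.135. At an unadjusted p under 0.05 there were 0 of the 7 and 1070 of all genes tested, or 6.49% (2.94% higher and 3.55% lower with tRA). Groups did not overlap for 0 of the 7 and for 584 genes, or 3.54% (1.91% with the tRA mice above and 1.63% with them below). DESeq2 called 44 genes, 0.267% of those tested, and limma-voom called 1. Of the 7 genes 0 were among them, and DESeq2 gave an FDR to 4 of the 7, with none for Stra6, Aldh1a2 and Crabp2. The fold change was positive for 5 and negative for 2 of the 7, with a median of 0.06 and a range from -0.52 to 0.54. The median over all genes tested was 0.00136 and their interquartile range was -0.12 to 0.11. The p-values rest on the spread between 4 mice per group, and in the exact permutation test (two-sided) of 4 against 4 the smallest possible p was 0.0286.

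**Figure D1:**
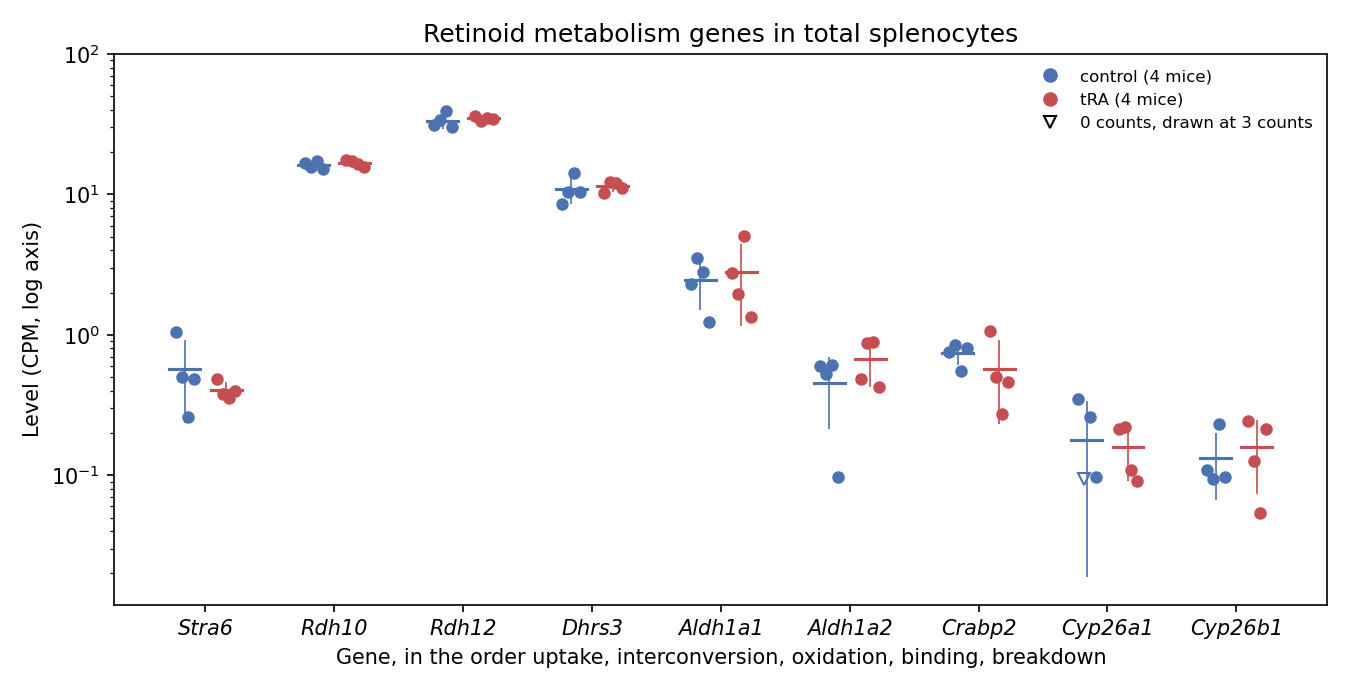
Level of each gene in CPM on a log axis in 4 control mice (blue) and 4 tRA mice (red). Points are mice, horizontal bars are means, vertical lines are the SD and the open triangle is a library with 0 counts drawn at the level of 3 counts. The groups overlap for each of the 9 genes.

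Stra6, the receptor for retinol uptake, is annotated at chr9:58063788-58153996 on the plus strand. It measured 1.06, 0.498, 0.260 and 0.485 CPM in control mice 1 to 4 and 0.489, 0.378, 0.353 and 0.397 CPM in tRA mice 1 to 4. Control mouse 1 was high, control mouse 3 was the lowest of the 8, and the tRA mice lay between them. The fold change was -0.52 (95% interval -1.42 to 0.39), with FDR 0.821 (edgeR's quasi-likelihood test, adjusted by Benjamini-Hochberg) and p = 0.600 in the exact permutation test (two-sided). The value rested largely on control mouse 1: without that mouse the fold change was -0.03, and without control mouse 3 it was -0.77. These levels correspond to between 9 and 39 counts per library.

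Rdh10, the main enzyme that oxidizes retinol to retinaldehyde in the embryo, lies at chr1:16105774-16133734 on the plus strand. It measured 16.8, 15.6, 17.4 and 15.1 CPM in control mice 1 to 4 and 17.7, 17.4, 16.4 and 15.6 CPM in tRA mice 1 to 4. The mice of both groups covered nearly the same range, and the coefficient of variation was 6.50% in the controls and 5.54% with tRA, the lowest of the 9 genes in the control mice. Its fold change was 0.05 (95% interval -0.14 to 0.24), so that a rise above 1.18-fold or a fall below 0.905-fold lay outside the interval. The exact permutation test (two-sided) gave p = 0.457. The fold change was 0.01 without control mouse 4 and 0.08 without tRA mouse 4.

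Rdh12, a reductase of retinaldehyde best known from photoreceptors, lies at chr12:79208914-79222665 on the plus strand. It measured 31.1, 33.9, 39.2 and 30.0 CPM in control mice 1 to 4 and 36.4, 33.3, 35.2 and 34.6 CPM in tRA mice 1 to 4. The tRA mice lay inside the range of the control mice. The fold change was 0.06 (95% interval -0.14 to 0.25), with p = 0.543 in the exact permutation test (two-sided). It was 0.006 without control mouse 4 and 0.13 without control mouse 3.

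Dhrs3, which reduces retinaldehyde back to retinol, lies at chr4:144892827-144928209 on the plus strand. It measured 8.58, 10.5, 14.3 and 10.3 CPM in control mice 1 to 4 and 10.2, 12.3, 12.1 and 11.1 CPM in tRA mice 1 to 4. Both the lowest and the highest of the 8 values were in control mice. The difference between groups was 0.07 (95% interval -0.27 to 0.40), with FDR 0.944 (edgeR's quasi-likelihood test, adjusted by Benjamini-Hochberg) and p = 0.629 in the exact permutation test (two-sided). Its sign depended on 1 mouse, being -0.03 without control mouse 1, and it was 0.22 without control mouse 3.

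Aldh1a1 oxidizes retinaldehyde to retinoic acid and lies at chr19:20492715-20643465 on the plus strand. It measured 2.30, 3.52, 2.80 and 1.23 CPM in control mice 1 to 4 and 2.78, 1.95, 5.10 and 1.34 CPM in tRA mice 1 to 4. The highest level was in tRA mouse 3, replicate 4 was low in both groups, and the groups overlapped widely. The fold change was 0.19 (95% interval -0.71 to 1.08), with p = 0.857 in the exact permutation test (two-sided). It turned to -0.28 without tRA mouse 3 and to -0.03 without control mouse 4. Aldh1a1 has a near copy, Aldh1a7, and their longest coding transcripts were 88.8% identical over 2036 aligned bases with an identical run of 100 bases. Reads in such a run could match both genes, and how they were counted was not tested. Aldh1a7 itself was at 0.269 ± 0.250 CPM (SD, n = 4) in control mice and 0.230 ± 0.198 CPM (SD, n = 4) with tRA.

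The level of Aldh1a1 followed the erythroid marker sum from mouse to mouse, a relation singled out after its values were seen. Over the 8 mice Pearson's r of the log2 values was 0.945 (exact permutation p = 0.000273, adjusted p = 0.0229) and Spearman's rho was 0.929 (exact permutation p = 0.00223, adjusted p = 0.188), with Benjamini-Hochberg adjustment over the 84 relations of 7 genes with 12 marker lists. Without the 2 mice farthest from the median erythroid sum, control mouse 4 and tRA mouse 3, r was 0.855. Rdh12 had r = 0.665 with the same sum (exact permutation p = 0.0745, adjusted p = 0.589). Its rho was 0.762 (exact permutation p = 0.0368, adjusted p = 0.604), and its r was 0.673 without those 2 mice. Alas2 had the highest CPM of the 5 markers. In tRA mouse 1 Alas2 was second highest of the 8 mice at 61.4 CPM, while Rhag at 2.08 CPM and Epor at 2.32 CPM were at their lowest, so the 5 markers did not move together there. Of the 84 relations, by Pearson's r, 1 had an adjusted p under 0.05 and 5 had an unadjusted p under 0.05, where chance gives about 4.2. The others were Crabp2 with immediate early and heat shock genes, Aldh1a1 with endothelial markers, Rdh10 with conventional dendritic cell markers (r = -0.797, exact permutation p = 0.0139, adjusted p = 0.390; rho = -0.857, exact permutation p = 0.0107, adjusted p = 0.450; r = -0.529 without the 2 farthest mice) and Stra6 with T cell markers (r = -0.699, exact permutation p = 0.0438, adjusted p = 0.589; rho = -0.619, exact permutation p = 0.115, adjusted p = 0.604; r = 0.0596 without the 2 farthest mice). Aldh1a1 also ran with endothelial markers (r = 0.762, exact permutation p = 0.0291, adjusted p = 0.589). Its rho with them was 0.786 (exact permutation p = 0.0279, adjusted p = 0.604). With reticular fibroblast markers r was 0.707 (exact permutation p = 0.0553, adjusted p = 0.589) and rho was 0.619 (exact permutation p = 0.115, adjusted p = 0.604). Without control mouse 4 and tRA mouse 3, farthest from the median endothelial sum, r with endothelial markers was 0.346. The endothelial relation thus rested largely on those mice. Without control mouse 3 and tRA mouse 3, farthest from the median fibroblast sum, r with fibroblast markers was 0.50. The difference between the 2 relations was not tested. Pecam1 averaged 240 CPM in control mice, where the endothelial sum averaged 268 CPM. With red pulp macrophage markers Aldh1a1 had r = 0.589 (exact permutation p = 0.123, adjusted p = 0.589) and rho = 0.619 (exact permutation p = 0.115, adjusted p = 0.604), and r = 0.880 without the 2 farthest mice. Red blood cells were lysed before sequencing, and the part of erythroid, endothelial, stromal or macrophage cells in the level of Aldh1a1 was not tested.

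Aldh1a2, the other retinaldehyde dehydrogenase and the one known from gut dendritic cells and stroma, lies at chr9:71215789-71296243 on the plus strand. It measured 0.595, 0.529, 0.607 and 0.0969 CPM in control mice 1 to 4 and 0.489, 0.882, 0.895 and 0.428 CPM in tRA mice 1 to 4. Control mouse 4 stood far below the others with 3 counts, and tRA mice 2 and 3 were the highest. The fold change of 0.54 was the largest in size among the 7 genes, yet its interval ran from -0.48 to 1.57, and the exact permutation test (two-sided) gave p = 0.343. Without control mouse 4 it was 0.22.

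Crabp2 binds retinoic acid in the cytosol and carries it to the nucleus; it lies at chr3:87948666-87953376 on the plus strand. It measured 0.758, 0.840, 0.549 and 0.808 CPM in control mice 1 to 4 and 1.07, 0.504, 0.271 and 0.458 CPM in tRA mice 1 to 4. In the tRA group mouse 1 was above the 4 controls and the other 3 mice were below them. Its fold change was -0.36 (95% interval -1.22 to 0.49), with p = 0.314 in the exact permutation test (two-sided). Leaving out tRA mouse 1 gave -0.85, with an unadjusted p of 0.0292 and an FDR of 0.347 (edgeR's quasi-likelihood test, adjusted by Benjamini-Hochberg), while leaving out tRA mouse 3 gave -0.12. The FDR of Crabp2 ranged from 0.347 to 0.999 over the alternatives. In the fit without tRA mouse 1, 12.6% of the genes had an unadjusted p below 0.05. The levels of Crabp2 correspond to between 10 and 35 counts per library. Crabp2 ran with the summed immediate early and heat shock genes (r = 0.838 over 8 mice, exact permutation p = 0.00697, adjusted p = 0.293; rho = 0.619, exact permutation p = 0.115, adjusted p = 0.604). That relation rested on tRA mice 3 and 4, since r was 0.315 without them. The heat shock genes alone differed from the sum, as tRA mouse 1, with the highest Crabp2, had low Hspa1a (127 CPM) and Hspa1b (276 CPM), and the part of stress or activation genes in the level of Crabp2 was not tested.

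Cyp26a1 and Cyp26b1, the cytochromes that break down retinoic acid, lie at chr19:37697798-37701536 on the plus strand and chr6:84571414-84593908 on the minus strand. Cyp26a1 had 13, 0, 9 and 3 counts in control mice 1 to 4 and 7, 7, 4 and 3 counts in tRA mice 1 to 4. A count of 0 in control mouse 2 allows up to 0.0934 CPM, for counting error only. Cyp26b1 had 4, 3, 8 and 3 counts in control mice 1 to 4 and 8, 4, 2 and 7 counts in tRA mice 1 to 4. In a fit with no filter on low counts the fold change was -0.19 (95% interval -1.67 to 1.28) for Cyp26a1 and 0.25 (95% interval -1.08 to 1.57) for Cyp26b1. The groups overlapped for both genes, and both intervals include 0.

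**Figure D2:**
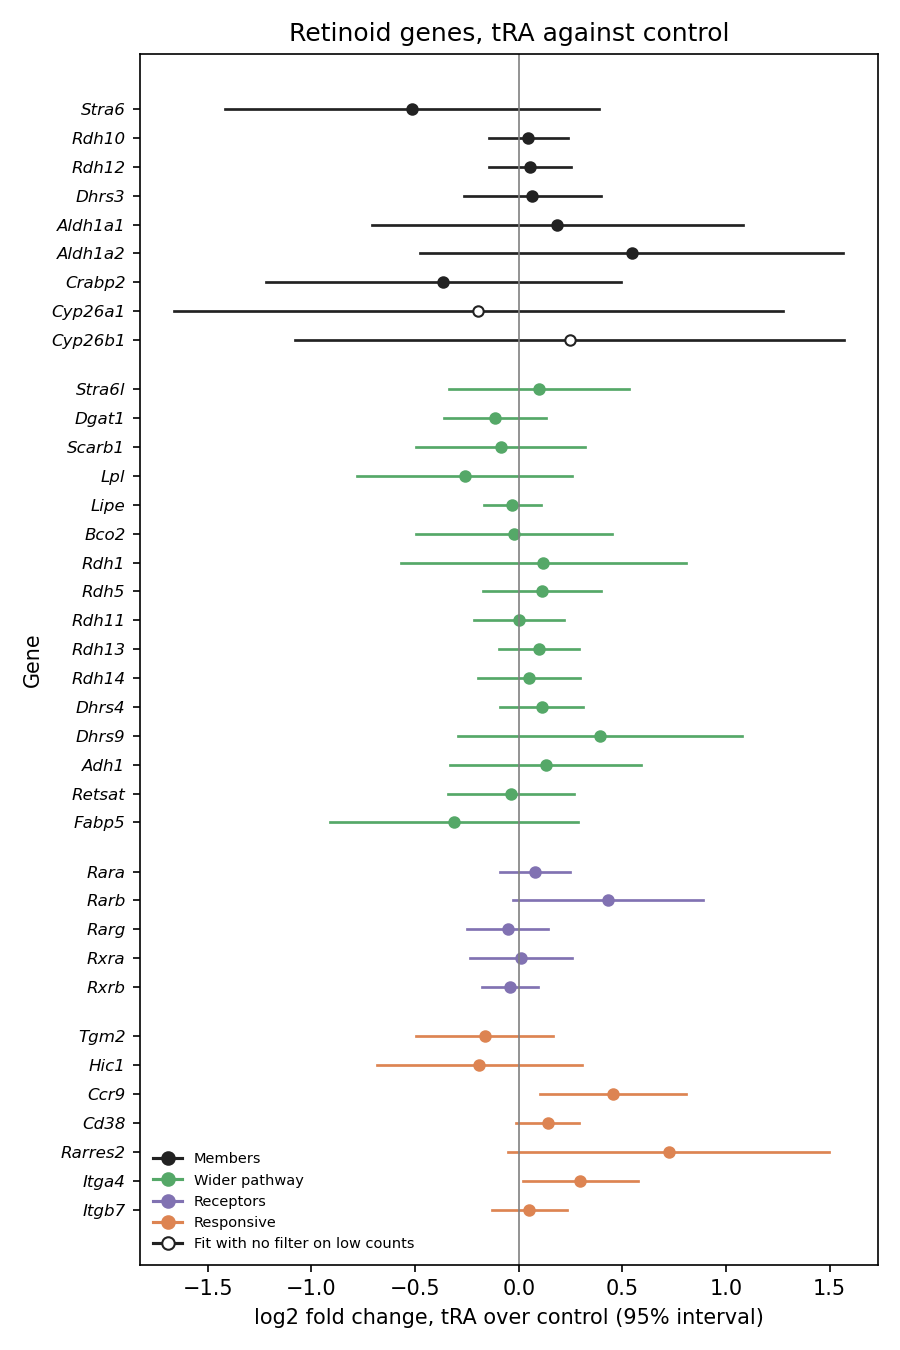
The log2 fold change of tRA over control with its 95% interval for the 9 genes (black), other genes of the pathway (green), receptors (purple) and responsive genes (orange). Open points come from a fit with no filter on low counts. The intervals of Ccr9 and Itga4 lie above 0, and the interval of each of the 9 genes includes 0.

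On the RPKM scale, which used the merged exons of each gene, Rdh12 was highest in control mice at 11.3 ± 1.37 RPKM (SD, n = 4). Its percentile among the genes tested was 72.2, in an order that does not follow the control means alone. Rdh10 at 3.90 ± 0.253 RPKM and Dhrs3 at 3.73 ± 0.824 RPKM came next and their control ranges overlapped. Crabp2 at 0.559 ± 0.0991 RPKM and Aldh1a1 at 0.499 ± 0.195 RPKM followed, then Aldh1a2 at 0.202 ± 0.107 RPKM, each overlapping its neighbor. Stra6 at 0.0986 ± 0.0581 RPKM, Cyp26a1 at 0.0894 ± 0.0798 RPKM and Cyp26b1 at 0.0247 ± 0.0124 RPKM were lowest. The control ranges of neighbors were separate between Rdh12 and Rdh10 and between Dhrs3 and Crabp2. The order of overlapping neighbors depended on the gene length used: with the longest protein-coding transcript, an alternative added after the first values were seen, Dhrs3 (4.67 RPKM) came before Rdh10 (4.52 RPKM) and Aldh1a1 (1.04 RPKM) before Crabp2 (0.793 RPKM).

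Among the 21 pairs of the 7 genes, r of log2 CPM over the 8 mice ran from -0.949 to 0.702 with a median of 0.207. The lowest was between Stra6 and Dhrs3, a pair singled out after its values were seen. Mice high in Stra6 were low in Dhrs3, with control mouse 1 and control mouse 3 at the ends (Pearson's r = -0.949, exact permutation p = 0.000273, adjusted p = 0.00573; Spearman's rho = -0.905, exact permutation p = 0.00456, adjusted p = 0.0958, adjusted by Benjamini-Hochberg over 21 pairs). Without those 2 mice r was -0.946.

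**Figure D3:**
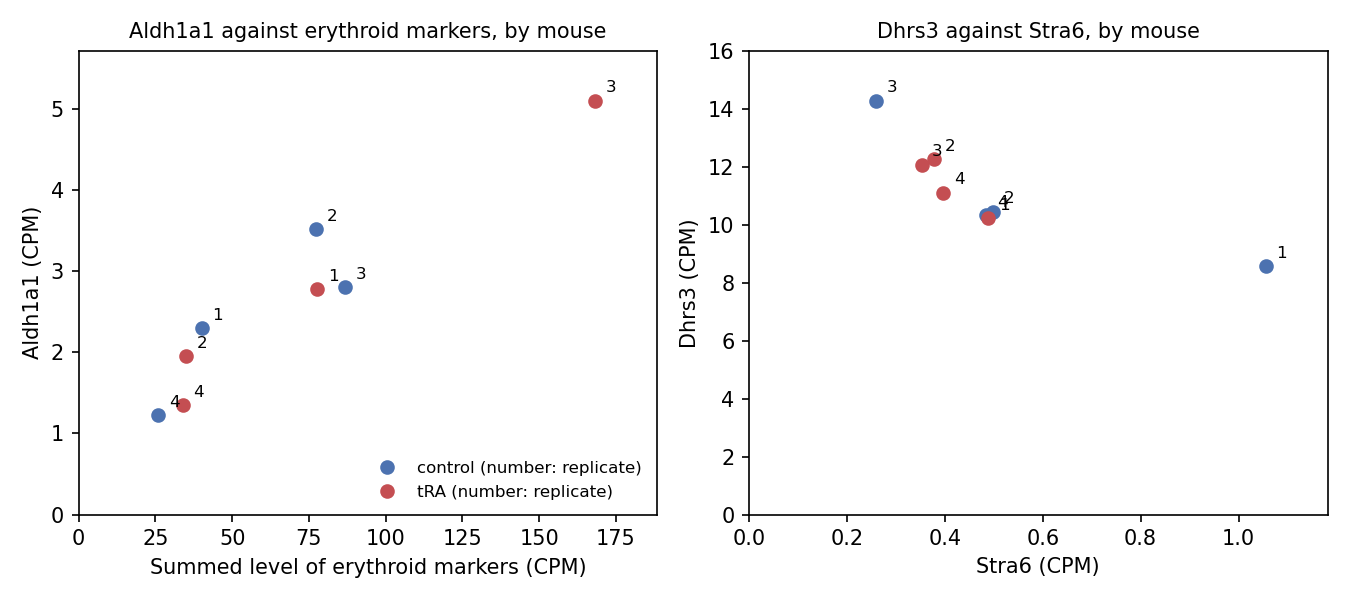
Left, Aldh1a1 against the summed level of 5 erythroid markers, and right, Dhrs3 against Stra6, each in CPM, with 1 point per mouse, numbered by replicate, in control (blue) and tRA (red). Both relations were picked once the values were known, and on each side the groups are mixed along the relation.

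Genes with the most similar pattern over the 8 mice, by Pearson's r of log2 CPM among all genes tested, were named as a description, with no test because they were chosen for being highest. They were Gm6855 (r = 0.974) and Snx30 (r = 0.971) for Stra6, Snx2 (r = 0.972) and Nolc1 (r = 0.964) for Rdh10, and Narfl (r = 0.959) and Trdc (r = 0.950) for Rdh12. For Dhrs3 they were Gm14335 (r = 0.975) and Nxpe5 (r = 0.968), and for Aldh1a1 Nr1h3 (r = 0.970) and Mtfp1 (r = 0.958). Kcnj1 (r = 0.972) and Adam6b (r = 0.970) were closest to Aldh1a2, and Rasl10a (r = 0.965) was among the closest to Crabp2.

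Of 37 other genes of retinoid transport, storage and conversion, 16 passed the filter and 5 had 0 counts in each library (Rbp2, Rdh7, Rpe65, Sdr16c5 and Sdr16c6). Of the 16, 9 had a positive and 7 a negative fold change, 0 had an unadjusted p under 0.05 (6.49% over all genes), with 0 by DESeq2 and 0 by limma-voom, and the median was 0.03. The most counted were Lipe, a lipase that hydrolyzes stored esters (38.0 ± 0.967 CPM in control mice and 37.2 ± 1.07 CPM with tRA, SD, n = 4), Dgat1 (37.4 ± 1.99 CPM and 34.5 ± 5.95 CPM) and Rdh11 (28.7 ± 3.11 CPM and 28.8 ± 2.83 CPM). The largest fold changes in size were 0.39 (95% interval -0.29 to 1.08) for Dhrs9, another retinol dehydrogenase, and -0.31 (95% interval -0.91 to 0.28) for Fabp5, a lipid carrier that also binds retinoic acid. Both moved with single mice left out, to 0.08 and -0.17 without tRA mouse 4. Without tRA mouse 1 Fabp5 was at -0.62. Fabp5 was at -0.14 without tRA mouse 3, and Dhrs9 at 0.18 without control mouse 3.

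Of 6 retinoid receptors 5 were tested, with 0 at an unadjusted p under 0.05 (6.49% over all genes) and a median fold change of 0.01. Rara was the most counted at 129 ± 11.6 CPM in control mice and 136 ± 7.25 CPM with tRA, followed by Rxrb and Rarg. Rarb, itself a retinoic acid target, was at 1.41 ± 0.267 CPM in control mice and 1.90 ± 0.263 CPM with tRA, a fold change of 0.43 (95% interval -0.03 to 0.89). Its unadjusted p was 0.0637 in edgeR's quasi-likelihood test. In that test it was 0.0396 without control mouse 2, 0.0483 without tRA mouse 1 and 0.158 without control mouse 3. The shares of all genes under 0.05 in those 3 fits were 6.78%, 12.6% and 5.44%.

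Of 9 retinoic acid-responsive genes, Rarb among them and so counted in both lists, 8 were tested, 6 with a positive and 2 with a negative fold change (median 0.22), and 2 had an unadjusted p under 0.05 (6.49% over all genes, 2.94% higher with tRA) without passing the FDR threshold. Ccr9, a gut homing chemokine receptor, measured 14.3, 16.9, 16.2 and 20.0 CPM in control mice 1 to 4 and 16.3, 22.3, 26.3 and 27.4 CPM in tRA mice 1 to 4. Of the tRA mice, 3 were above each control mouse and mouse 1 was not. The fold change was 0.45 (95% interval 0.10 to 0.81), with FDR 0.757 (edgeR's quasi-likelihood test, adjusted by Benjamini-Hochberg) and p = 0.0857 in the exact permutation test (two-sided). Itga4, an integrin subunit used in homing, averaged 356 ± 40.8 CPM in control mice and 438 ± 77.2 CPM with tRA (SD, n = 4), a fold change of 0.30 (95% interval 0.02 to 0.57), with FDR 0.757 (edgeR's quasi-likelihood test, adjusted by Benjamini-Hochberg). Without tRA mouse 4, the highest, it was 0.17. Itgb7, another integrin subunit and the most counted gene of the list, averaged 569 ± 57.6 CPM in control mice and 590 ± 20.6 CPM with tRA. Its fold change was 0.05 (95% interval -0.13 to 0.23). The negative fold changes were -0.16 for Tgm2 and -0.19 for Hic1. The count of 2 genes at an unadjusted p under 0.05 moved between 0 and 5 when single mice were left out. It was 0 without tRA mouse 4 and 5 without tRA mouse 1. In those 2 fits the share of all genes tested at an unadjusted p under 0.05 moved the same way. It was 3.93% without tRA mouse 4 and 12.6% without tRA mouse 1. Without tRA mouse 3 the count was 3 and the share 5.21%.

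Promoters were read for the binding motif of retinoic acid receptors because Cyp26a1 is a known direct target. RefSeq (GRCm38.p6) gave 13 windows of 300 bases, 250 before and 50 after a start, for 7 of the 9 genes. The 6-letter core was searched on either strand as AGGTCA and, in other spellings, as AGTTCA, further as GGTTCA and also as GGGTCA. It was in 43.7% of 32851 promoter windows and in 3 of the 13 windows, those of Aldh1a1, Cyp26a1 and Stra6. A pair of cores in the same direction with 5 bases between them was in 0.0974% of all windows and, among the 7 genes, in Cyp26a1. Pairs with 1 base or 2 bases between them were in 0.222% and 0.268% of all windows and in 0 of the 13. The Cyp26a1 pair reads on the strand opposite to the gene, and the stretch chr19:37697770-37697798 is printed on the plus strand with the cores in capitals.
Cyp26a1: taaagaTGAACTttgggTGAACTaatttg
A match describes the letters in the window and is no measure of binding.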

How the data were processed

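The authors deposited raw counts per Ensembl gene for each mouse. The study's methods name ea-utils and Btrim, Bowtie2 and Tophat2, and HTSeq, whereas the submitters' processing notes name STAR 2.5.2b, featureCounts 1.5.1, DESeq2 1.26.0 and GRCm38; use of strand is not given in the sources used here. The authors' own comparison file, with a mean, fold changes and p-values, was not used. Symbols and exons came from GENCODE M21, which held 51633 of 51826 identifiers.

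The tests were run in R 4.3.3, using edgeR 4.0.16 (filterByExpr, minimum count 10; TMM; quasi-likelihood test; FDR under 0.1), with DESeq2 1.42.0 and limma 3.58.1 as alternatives, and in Python 3.11.15. The fits were tested on simulated data. The other alternatives were RLE scaling, library size alone, no filter, at least 10 counts in every library, the replicate number as a block, and each mouse left out. Each of the 9 genes was named; of other lists, genes with an unadjusted p under 0.05, or else the 3 highest and the 2 with the largest change; and for each gene tested, the 2 genes with the most similar pattern, of which 1 is not reported here. Itgb7, Tgm2 and Hic1 of the responsive list were named outside this rule. The genes and lists were chosen with earlier results of these data known. RPKM on the longest protein-coding transcript, and the relations between genes and marker lists, were added after values were seen. RPKM on merged exons was computed first and was kept.

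Further marker lists were summed in each mouse. Endothelial markers (8 genes, Pecam1 most counted) summed to between 255 and 289 CPM, red pulp macrophage markers (9 genes, Hmox1 most counted) to between 495 and 872 CPM, conventional dendritic cell markers (9 genes, Itgax most counted) to between 128 and 196 CPM, and platelet and megakaryocyte markers (5 genes, Itga2b most counted) to between 6.42 and 8.58 CPM. Within groups no pair of libraries was a duplicate, as chi-square over its degrees of freedom ran from 12.9 to 65.4. Pairs across groups were not compared.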

Additional observations from a re-analysis of the deposited data

Results flagged for a closer look

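Among 18 groups of 4 mice (9 genes in 2 groups), 2 held a mouse far from the others, where chance gives about 1 in 20 groups, or 0.9. Aldh1a2 was at 0.0969 CPM in control mouse 4, and its gap to the nearest mouse was 0.848 of the range of the group. Cyp26b1 was at 0.231 CPM in control mouse 3, with a gap of 0.892 of the range. Both values rest on few counts, 3 for Aldh1a2 and 8 for Cyp26b1.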

How the results depend on the processing

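Under each of the 15 alternatives 0 of the 9 genes were called, but not all 9 could be: 7 were tested in most, 9 with no filter and 5 with at least 10 counts in every library, and DESeq2 gave an FDR to 4. The number of genes called, 0 with edgeR, was 6 with no filter on low counts, 44 with DESeq2 and 1 with limma-voom, and between 0 and 3 with a mouse left out (3 without tRA mouse 4); the cause was not tested. With a mouse left out, the number at an unadjusted p under 0.05 ran from 0 to 1 among the 9 genes, 0 to 2 among the other pathway genes, 0 to 1 among the receptors and 0 to 5 among the responsive genes, while among all genes it ran from 657 to 2105, with each of these maxima reached without tRA mouse 1. The fold change of Aldh1a1 ran from -0.28 to 0.42 and turned negative without control mouse 4 (-0.03) and without tRA mouse 3 (-0.28). That of Dhrs3 ran from -0.03 to 0.22 and turned negative without control mouse 1 (-0.034). The median over the 7 genes ran from 0.01 to 0.13. Mice of the 2 groups share only a replicate number: deviations of same-numbered mice correlated at 0.157, -0.0229, -0.014 and 0.259, and with the replicate block 0 genes were called. With the longest protein-coding transcript in place of merged exons, added after values were seen, the control RPKM moved by more than 1 SD for 6 of the 9 genes, Rdh12 from 11.3 to 20.0 RPKM. Cyp26a1, Cyp26b1, Aldh1a2, Stra6 and Crabp2 had at most 39 counts in a library, and the part of depth in the width of their intervals was not tested.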
